A study of Homo sapiens with 6 samples.

Results

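The LINC01122 enhancer cluster is a stretch of human chromosome 2p16.1 that holds the gene FANCL, the noncoding gene LINC01122 and a chain of H3K27ac anchors. It was followed here in HiChIP loops of the G401 cell line. Members were all loops with either anchor overlapping chr2:58350000-59350000 (hg19), a region of 1000 kb. The right-hand end of FANCL lies near position 58468515, and the rule that chose the region places LINC01122 from about position 58655000. FANCL is on the minus strand, so this end, called the FANCL end here, is the side on which the gene starts. FANCL runs left from it, and its left end was not placed here. The chain lies at 58716650-58895687 and is 179 kb long. After overlapping anchors of all libraries were merged, the region held 19 of 30001 merged anchors, of which 4 formed the chain, and 299 of 348566 merged loops. The region and the chain were chosen by their gain of H3K27ac contacts on day 3 over day 0, so values from that contrast describe the choice. Counts of members past the threshold in it are printed beside the share over all features, and nothing is read from them.

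HiChIP joins DNA ends that lie close together in the nucleus and then enriches the joined fragments with an antibody, and each joined fragment is read as a paired-end tag (PET). G401 is an established line from a rhabdoid tumour of the kidney without SMARCB1, which is a core part of SWI/SNF, a complex that remodels chromatin. The cells carried a SMARCB1 gene that doxycycline at 1 µg/ml switches on. The groups were ARID1A HiChIP on day 3 with SMARCB1 re-expressed, H3K27ac HiChIP on day 3 with SMARCB1 re-expressed, and H3K27ac HiChIP on day 0 in the SMARCB1 -/- cells without doxycycline, with 2 libraries each. SMARCB1, doxycycline and time changed together between day 0 and day 3, so their parts cannot be told apart. ARID1A was profiled on day 3 only. The labels do not say that replicates were separate cultures, so p-values cover only the spread from library to library, which could be technical.

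H3K27ac, acetylation of lysine on histone H3, marks active promoters and enhancers, and long runs of it are found at clusters of enhancers. ARID1A is a DNA-binding subunit found only in the canonical BAF form of SWI/SNF, which acts mostly at enhancers. FANCL is the E3 ubiquitin ligase of the Fanconi anaemia core complex and attaches ubiquitin to FANCD2 and FANCI during the repair of DNA interstrand crosslinks. LINC01122 is a long noncoding RNA gene, and no molecular role is assigned to it here. In the RefSeq order the genes between FANCL and LINC01122 are EIF3FP3, LINC01795 and LOC644456, and LOC124907771 and LINC01793 follow LINC01122. EIF3FP3 and LOC644456 are pseudogenes and LINC01795 is a noncoding RNA gene, so FANCL is the protein-coding gene among those named here. The name enhancer cluster rests on H3K27ac anchors alone, and no RNA was measured.

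The promoters of FANCL and LINC01122 are shown because they are the genes that name the locus, and they differ in base composition. Each sequence, from RefSeq on GRCh38.p14, runs from 250 bases before to 50 bases after the annotated start, on the strand of the gene. Capitals mark a match to the AP-1 motif TGANTCA, which equals its own reverse complement.
FANCL, chr2:58241276-58241575, minus strand: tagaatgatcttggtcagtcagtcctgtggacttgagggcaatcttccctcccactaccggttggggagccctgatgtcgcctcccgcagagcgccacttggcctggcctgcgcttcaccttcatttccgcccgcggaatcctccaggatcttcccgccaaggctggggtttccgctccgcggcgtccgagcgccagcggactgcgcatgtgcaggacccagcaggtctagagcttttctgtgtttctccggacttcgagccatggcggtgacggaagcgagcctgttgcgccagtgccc
LINC01122, chr2:58520503-58520802, plus strand: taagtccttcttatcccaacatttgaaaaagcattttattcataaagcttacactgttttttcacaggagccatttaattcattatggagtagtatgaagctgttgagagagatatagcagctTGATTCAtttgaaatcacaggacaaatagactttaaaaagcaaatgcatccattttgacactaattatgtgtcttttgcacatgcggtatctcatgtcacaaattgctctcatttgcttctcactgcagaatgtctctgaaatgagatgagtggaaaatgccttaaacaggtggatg
The FANCL promoter had 63% G or C bases and 23 CpG pairs, and 61.3% of 35116 RefSeq promoters had a lower G and C share. The LINC01122 promoter had 35.3% G or C bases and 1 CpG pair, and 4.66% of promoters had a lower share. The medians over all promoters were 58.7% and 14 CpG pairs. LINC01122 held 1 AP-1 match, TGATTCA, at positions 124 to 130 of the printed bases, and FANCL held none. The motif occurred in 7.71% of promoters of this length. The TEAD motif GGAATG, searched with its reverse complement CATTCC, was found in neither promoter and in 14.03% of all promoters. These letters are a description and do not show binding. The RefSeq starts of both genes lie 279 kb apart on GRCh38, while the hg19 positions of FANCL and LINC01122 used to choose the members lie 186 kb apart. Distances in the hg19 files from the FANCL end are 183 to 213 kb for the anchor over 58655000, called the 198 kb anchor here, and 268 to 308 kb for the second chain anchor, 58736084-58776716. A start of LINC01122 at 279 kb would thus lie within that chain anchor and not in the 198 kb anchor. Coordinates were not converted between builds, so whether the RefSeq start lies beside the chain or in it is not settled here, and no anchor is named for LINC01122. The hg19 position of the FANCL end lay inside an anchor of every group.

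Depth limited the loops of few PETs. The libraries listed 435210 and 467487 PETs with ARID1A, 929128 and 982141 PETs with H3K27ac on day 3, and 301703 and 253502 PETs with H3K27ac on day 0. Within the region the files listed 171 and 192 loops with ARID1A, 196 and 198 loops with H3K27ac on day 3, and 43 and 46 loops with H3K27ac on day 0. Anchors were shared by the replicates of a group and differed between groups, so a group says nothing about a place where it lacked an anchor, and no fold is given there. Levels are in CPM, the PETs of an anchor or loop per 1000000 PETs that joined different merged anchors in that library. The level of an anchor counts PETs to every partner listed in that group, also partners that another group lacked. Distances are from the FANCL end to the centre of a merged anchor.

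PETs at the region made up 0.155% and 0.146% of listed PETs with ARID1A (675 and 681 PETs), 0.507% and 0.502% with H3K27ac on day 3 (4708 and 4931 PETs), and 0.165% and 0.165% with H3K27ac on day 0 (498 and 419 PETs). The 95% Wilson intervals, which cover counting error only, were 0.144 to 0.167% and 0.135 to 0.157% with ARID1A, 0.492 to 0.521% and 0.488 to 0.516% on day 3, and 0.151 to 0.180% and 0.150 to 0.182% on day 0. The day 3 H3K27ac libraries stood above the other 4 libraries. The H3K27ac share was 3.05 times as high on day 3 as on day 0, which is the difference that the region was chosen for. The ARID1A share averaged 0.150% ± 0.00666, against 0.504% ± 0.00328 for H3K27ac on day 3 (SD, n = 2 each). That difference of -0.354 percentage points had an exact two-sided permutation p of 0.333, the smallest that 2 against 2 libraries can give. The day 3 H3K27ac libraries took part in the choice of the region. This difference therefore also describes the choice, and nothing is read from the p.

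Much of the difference in called anchors lay in the chain. On day 3 H3K27ac had 17 anchors in the region, which covered 325 kb or 32.5% of it, against 10 anchors, 138 kb and 13.8% on day 0. Inside the chain 6 day 3 anchors covered 172 kb, or 96.1%, and lay 775 to 2629 bases apart. On day 0 the chain held 3 anchors that covered 37.1 kb, or 20.7%, and lay 60422 to 76300 bases apart. The day 3 chain was therefore close to one unbroken block, and the day 0 chain was 3 islands. ARID1A had 17 anchors in the region, which covered 225 kb or 22.5% of it, but only 1 of them, of 39812 bases, lay in the chain, where it covered 22.2%. ARID1A had no anchor between 58681034 and 58854536, so the anchor at 233 kb and all merged anchors of the chain but the last were not measured with ARID1A. All 3 groups lacked anchors over about the same stretch between FANCL and the 198 kb anchor, of 179 kb with ARID1A, 183 kb with H3K27ac on day 3 and 184 kb with H3K27ac on day 0.

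**Figure D1:**
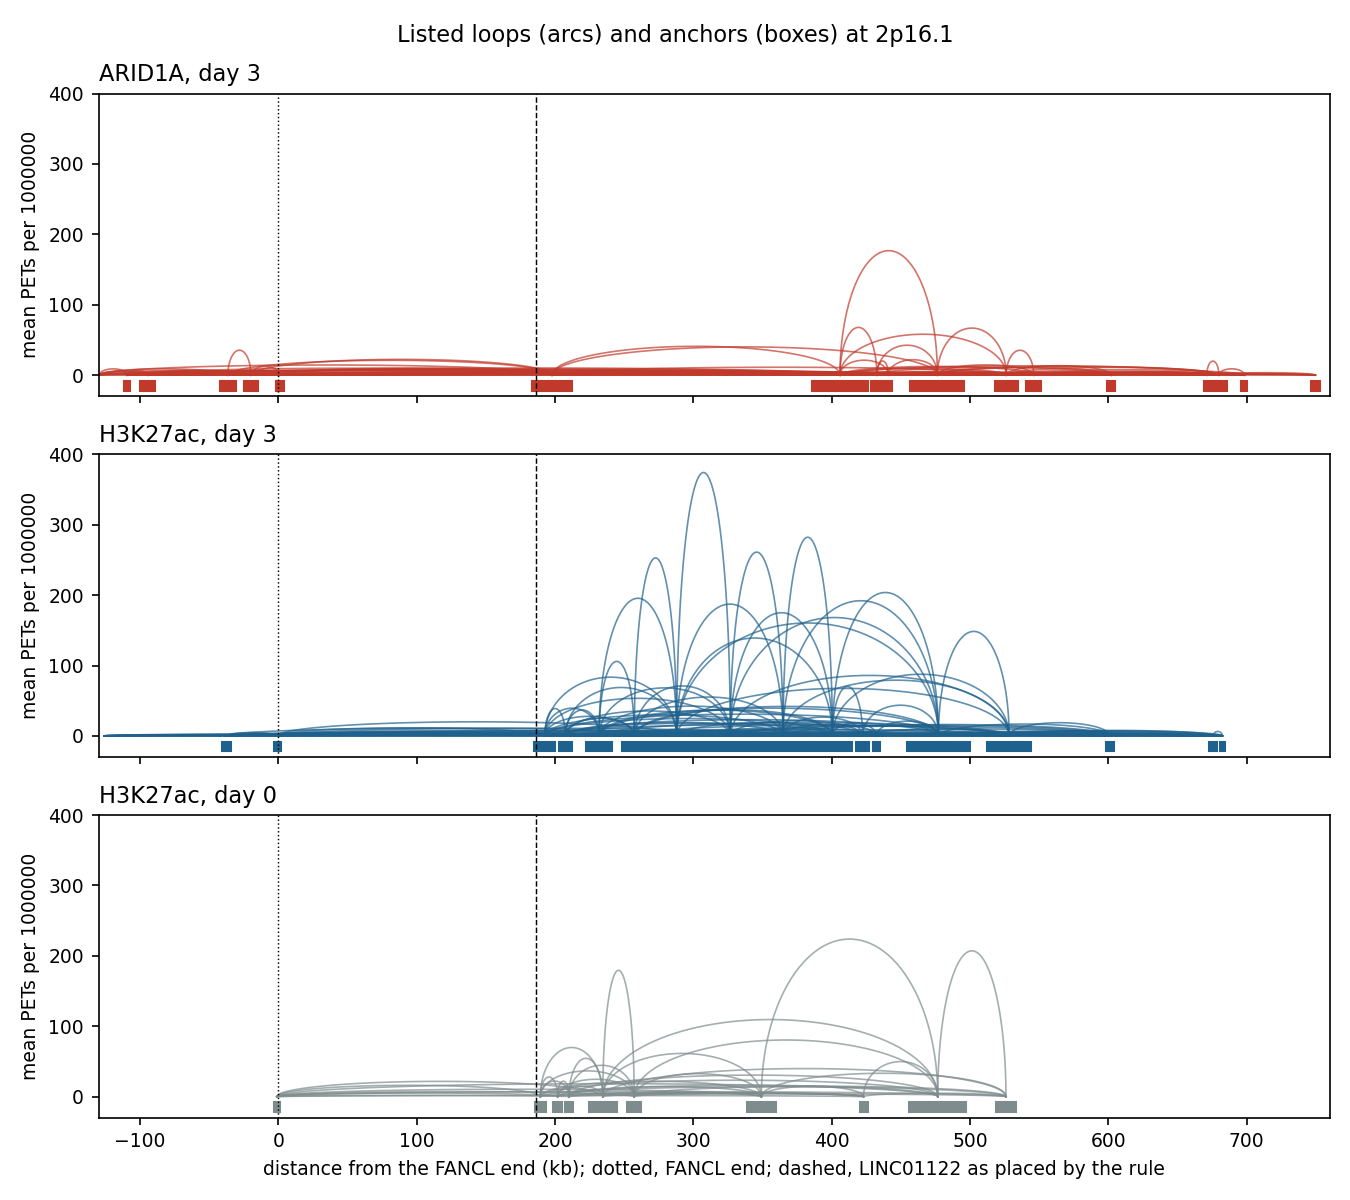
Listed loops (arcs, height in mean PETs per 1000000 listed PETs of the library) and anchors (boxes) for ARID1A on day 3, H3K27ac on day 3 and H3K27ac on day 0, against the distance from the FANCL end in kb, with the position from which the rule places LINC01122 dashed. Loops that leave the plotted span on the left or right are not drawn. The day 3 H3K27ac arcs stand over a chain that 6 anchors covered to 96.1%, against 3 anchors and 20.7% on day 0.

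The merged anchors of the chain are called C1 to C4 from left to right. C1, 58716650-58734875 at 257 kb, had 732 and 682 CPM with H3K27ac on day 3 and 530 and 469 on day 0. C2, 58736084-58776716 at 288 kb, had 1770 and 1756 CPM on day 3 (1541 and 1617 PETs) and no anchor on day 0. C3, 58778232-58853761 at 347 kb, had 2304 and 2230 CPM on day 3 and 419 and 555 on day 0. C3 and C2 held the highest levels of the region on day 3, and replicates differed far less than the days did at C3. C4, 58854536-58895687 at 407 kb, had 550 and 455 CPM with ARID1A, 1259 and 1350 with H3K27ac on day 3, and 115 and 100 on day 0. It was the chain anchor listed in all 3 groups.

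Among all 16175 merged anchors with H3K27ac on day 3, C3 ranked 16, C2 41, C4 108 and C1 373 by mean level. On day 0 C3 ranked 1008, C4 3874 and C1 974 of 7658 anchors. C2 ranked 1 of the 9185 day 3 anchors that had no day 0 anchor. The other anchors of the region without a day 0 anchor ranked 1127 to 3116 of those 9185. Ranks of lists of different length do not show a change and are given to place the chain within each library.

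Anchors outside the chain differed less between the days than C3 and C4. The FANCL anchor, 58465101-58472263, had 54.8 and 71.0 CPM with ARID1A, 124 and 95.6 with H3K27ac on day 3, and 99.8 and 109 on day 0. The H3K27ac values at FANCL overlapped between the days. The 198 kb anchor, 58651646-58681764, had 310 and 302 CPM with ARID1A, 683 and 628 with H3K27ac on day 3, and 465 and 519 on day 0. The anchor next to the chain on its left, 58690846-58712991 at 233 kb, had 674 and 653 CPM on day 3 and 668 and 641 on day 0, and these ranges overlapped. At 233 kb, 393 and 379 of 587 and 601 day 3 PETs went to anchors also called on day 0. At the 198 kb anchor it was 415 and 397 of 595 and 578, and at C1 376 and 376 of 637 and 628. On day 0 all PETs of these anchors went to anchors called on both days. The levels count the other day 3 PETs too and so do not compare the same partners. Right of the chain, 58922776-58968489 at 477 kb had 538 and 432 CPM with ARID1A, 1201 and 1240 with H3K27ac on day 3, and 914 and 851 on day 0. The anchor 58980900-59019990 at 532 kb had 329 and 279 CPM with ARID1A, 613 and 657 with H3K27ac on day 3, and 434 and 328 on day 0. At both of these right-hand anchors H3K27ac on day 3 was the highest, which is the direction that the region was chosen for. The called width on day 3 over day 0 was 1.10 at 477 kb and 2.19 at 532 kb.

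The smaller members were listed in fewer groups. Anchors at 433 kb (58896875-58905300), 602 kb (59066624-59073573), 678 kb (59137879-59154176) and -36.6 kb (58425962-58437954) were called with ARID1A and with H3K27ac on day 3 and not on day 0. Their ARID1A levels were 188 and 160, 78.6 and 68.7, 100.1 and 99.8, and 138 and 155 CPM in that order. Their day 3 H3K27ac levels in the same order were 95.3 and 106, 123 and 114, 78.1 and 69.5, and 65.5 and 53.2. Another 6 anchors were called with ARID1A only, with mean levels of 15.2 to 129 CPM. The highest of them, 58443255-58453897, lay between the -36.6 kb anchor and the FANCL anchor. FANCL runs left from its anchor, so whether these anchors lie inside the gene is not settled here. At the edges of the region, the nearest anchor outside on the left, 58330575-58347563, had 150 and 137 CPM with ARID1A and 14.9 and 20.6 with H3K27ac on day 3, and the nearest inside, 58356554-58361522, had 59.6 and 62.1 with ARID1A only. On the right the last anchor inside, 59214983-59221233, had 23.8 and 6.65 with ARID1A, and the first outside, 59422728-59426676, had 28.6 and 6.65.

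**Figure D2:**
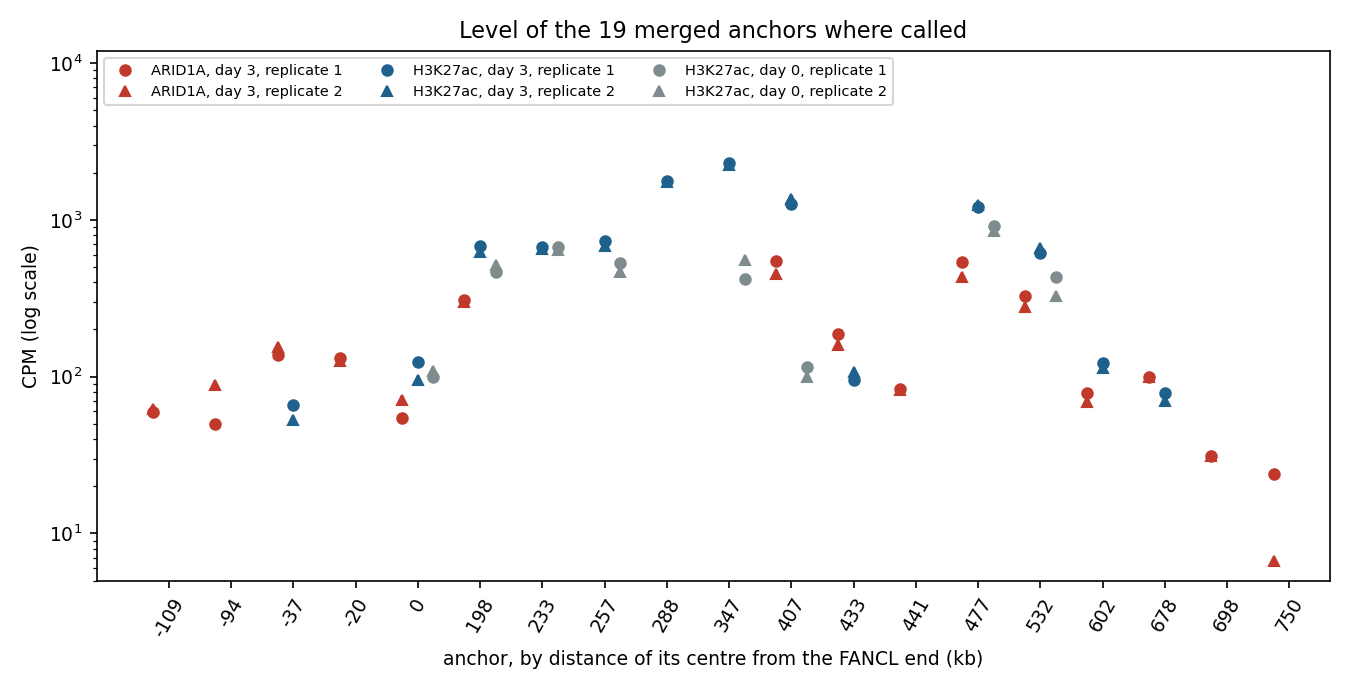
Level of each of the 19 merged anchors in CPM (log scale) by its distance from the FANCL end in kb, for ARID1A on day 3, H3K27ac on day 3 and H3K27ac on day 0, with a circle for replicate 1 and a triangle for replicate 2, shown only where the group had an anchor. C2, at 288 kb, has only day 3 H3K27ac points, at 1770 and 1756 CPM.

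Chain anchors were also called wider on day 3. The called width at C3 was 74711 bases with H3K27ac on day 3 and 21056 bases on day 0, and at C4 it was 38522 bases on day 3 and 5785 bases on day 0. Per kb of called width, C1 had 38.8 CPM on day 3 and 48.6 on day 0, and C3 had 30.3 on day 3 and 23.1 on day 0. C4 had 12.6 CPM per kb with ARID1A, 33.9 with H3K27ac on day 3 and 18.6 on day 0. C2, measured on day 3 only, had 43.4. Per kb C1 was thus lower on day 3 than on day 0, while C3 and C4 were higher. Outside the chain, the FANCL anchor had 11.2 CPM per kb with ARID1A, 23.6 with H3K27ac on day 3 and 23.8 on day 0, and the 198 kb anchor had 10.4, 26.9 and 23.6 in the same groups. The anchor at 477 kb had 12.5 with ARID1A, 26.7 with H3K27ac on day 3 and 21.3 on day 0.

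**Figure D3:**
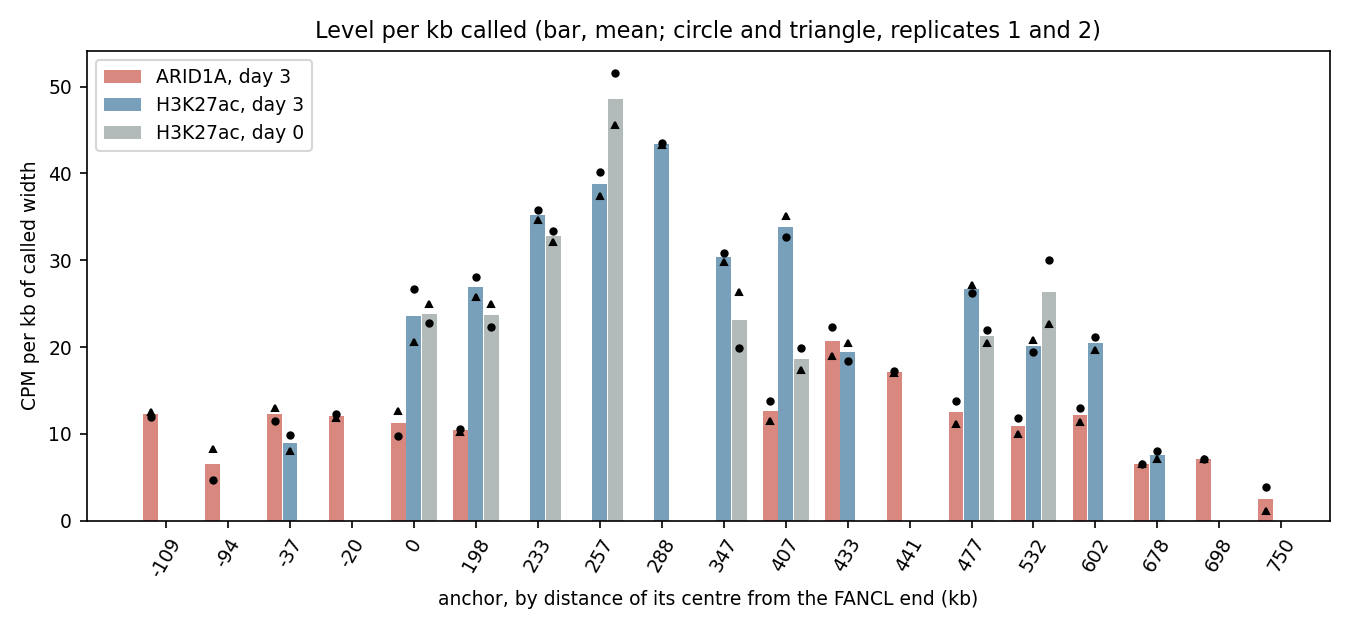
Level per kb of called width, in CPM per kb, at the 19 merged anchors by distance from the FANCL end in kb, with bars for the mean of 2 libraries and circles and triangles for replicates 1 and 2. The FANCL anchor has 11.2 with ARID1A, 23.6 with H3K27ac on day 3 and 23.8 on day 0, and C4, at 407 kb, has 12.6, 33.9 and 18.6.

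In the fit of H3K27ac on day 3 over day 0, PETs were counted between anchors called on both days. Of the 19 merged anchors 8 could be measured and all 8 were tested, and 6 passed an adjusted p of 0.05 as higher on day 3 and 0 as lower by edgeR (6 and 0 at an unadjusted p under 0.05, and 5 and 0 by DESeq2), where 39.5% of all 6251 anchors passed, 20.7% as higher and 18.8% as lower. Nothing is read from that count, because this contrast chose the members. The log2 fold change was 3.91 ± 0.14 (SE) at C4, with 912 and 989 PETs on day 3 and 30 and 22 PETs on day 0. It was 2.29 ± 0.09 at C3 and 0.36 ± 0.11 at C1. Outside the chain it was 1.04 ± 0.12 at 532 kb, 0.75 ± 0.08 at 477 kb, 0.51 ± 0.11 at the 198 kb anchor, 0.10 ± 0.24 at FANCL and 0.02 ± 0.11 at 233 kb. The values thus ran from C4 down to the anchors at FANCL and 233 kb, at which the difference was within its SE. With library totals in place of TMM the median of all anchors was -0.62 in place of -0.01, 3 of the 8 passed as higher and 2 as lower, and 4 had values below 0, with -0.61 at 233 kb, -0.52 at FANCL, -0.26 at C1 and -0.11 at the 198 kb anchor. The direction at these 4 thus turned with the scaling, while C3 and C4 kept theirs at 1.67 and 3.29. The median of the 8 was 0.63, against -0.01 over all anchors tested.

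On day 3 many contacts of the chain stayed within it. PETs that joined chain anchors to each other numbered 1843 and 1935 with H3K27ac on day 3 and 14 and 15 on day 0, and they were 45.5% and 45.5% of all PETs that touched the chain on day 3, against 5.32% and 6.47% on day 0. All 15 pairs of the 6 day 3 anchors were listed, while 3 anchors on day 0 allow fewer pairs, and with ARID1A the chain had a single anchor and so no pair. The 5 pairs of neighbours held 1169 and 1201 PETs, and the 10 pairs that skipped at least 1 anchor held 674 and 734. The fullest pair, 58736084-58776716 with 58778232-58812020, had 368 and 346 PETs. Over the region, PETs with an end in the chain were 34.2% and 30.1% with ARID1A, 86.1% and 86.3% with H3K27ac on day 3, and 52.8% and 55.4% with H3K27ac on day 0. The day 3 H3K27ac loops of the region held 24.02 and 24.9 PETs per loop, against 11.6 and 9.11 on day 0. ARID1A loops had 3.95 and 3.55. Over the whole libraries the values were 5.735 and 6.06 on day 3, 6.46 and 5.75 on day 0, and 2.76 and 2.85 with ARID1A. These counts are raw, and the libraries differed in depth.

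By merged anchors, the loop with the most day 3 PETs joined C2 and C3, with 540 and 532 PETs on day 3, and C2 was not called on day 0. The loop between C3 and C4 had 471 and 495 PETs on day 3 and 3 and 5 PETs on day 0, a log2 fold change of 5.58 ± 0.25. C3 and the anchor at 477 kb were joined by 342 and 346 PETs on day 3 and 53 and 69 PETs on day 0 (1.18 ± 0.14), and on day 0 that loop had the highest mean level of the region. Next to these, the loop from 477 to 532 kb had 41 and 32 PETs with ARID1A, 133 and 151 with H3K27ac on day 3, and 81 and 37 on day 0, and its log2 value between the days was -0.04 ± 0.17. Within the region, none of the 3 loops among FANCL, the 198 kb anchor and the 233 kb anchor passed between the days. Their values ran from -1.69 ± 0.65 to -0.01 ± 0.49, and the last was well within its SE. The 198 kb anchor was joined to the 233 kb anchor by 79 and 66 PETs on day 3 and 39 and 38 on day 0 (-0.40 ± 0.21).

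Of the 299 merged loops, 36 joined anchors called with H3K27ac on both days, 33 had at least 4 PETs in 2 or more libraries, and 13 passed as higher on day 3 and 1 as lower, where 15.0% of all 16642 loops passed, 8.35% as higher and 6.70% as lower. With library totals the split was 11 higher and 8 lower, with DESeq2 11 and 0 (11 and 1 at an unadjusted p under 0.05), and after thinning 5 and 0 of 24 by edgeR (12 and 0 at an unadjusted p under 0.05). The lower loop joined the 233 and 477 kb anchors across the chain, with 28 and 48 PETs on day 3 and 34 and 27 PETs on day 0 (-0.99 ± 0.26), and both its anchors had nearly equal width on the days, with day 3 over day 0 width ratios of 0.943 and 1.10. It did not pass with DESeq2, without the filter on low counts, at a deposited value of 0.01 or less, after thinning, or without the first library of day 3 (-0.53) or of day 0 (-0.94), though its value was below 0 in all settings run, at -1.58 to -0.53. In CPM it had 42.2 ± 14.1 on day 3 and 127 ± 5.48 on day 0 (SD, n = 2 each). Of the 33 loops, 10 joined anchors whose widths on the days were within 1.5 times of each other, and of these 4 had values above 0 and 6 below, with a median log2 value of -0.21. Only 1 of the 13 loops that passed as higher was among them. The median over the 33 was 1.09, against 0.06 over all loops tested.

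On day 3 the FANCL anchor had fewer PETs than the chain anchors measured with the same antibody. It had 23 and 32 PETs with ARID1A, 108 and 88 with H3K27ac on day 3, and 26 and 24 on day 0. By mean level it ranked 9748 of 25738 anchors with ARID1A, 4757 of 16175 with H3K27ac on day 3, and 3949 of 7658 on day 0. Its contacts were thus few beside the chain and not few among all anchors. FANCL and the 198 kb anchor were joined by 4 and 5 PETs with ARID1A, 18 and 14 with H3K27ac on day 3, and 7 and 6 on day 0, with a log2 value between the days of -0.01 ± 0.49. FANCL and C3 were joined by 20 and 16 PETs on day 3 and 4 and 2 on day 0 (1.25 ± 0.60), and FANCL and C2 by 23 and 15 PETs on day 3, where day 0 had no anchor. FANCL and C4 shared 2 and 3 PETs with ARID1A, 6 and 7 with H3K27ac on day 3, and 1 and 0 on day 0. To the left, FANCL and 58268821-58277100 shared 0 and 0 PETs with ARID1A, 5 and 6 with H3K27ac on day 3, and 0 and 0 on day 0, with an anchor there in every group. Contacts from FANCL into the chain were listed in both day 3 H3K27ac libraries, at 4 to 23 PETs per merged anchor. FANCL and the 233 kb anchor were joined by 6 and 3 PETs on day 3 and 6 and 6 on day 0 (-1.69 ± 0.65), the lowest log2 value among the tested loops of the region between the days.

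Beyond the region, H3K27ac contacts from the chain ran mostly to the left, past FANCL. PETs from the chain to anchors outside numbered 17 and 19 with ARID1A (7.36% and 9.27% of those between the chain and other anchors), 132 and 131 with H3K27ac on day 3 (5.97% and 5.64%), and 1 and 3 on day 0 (0.402% and 1.38%). The far partner with the most PETs was 58268821-58277100, at 196 kb left of the FANCL end. It had 23 and 42 PETs on day 3 and 1 and 3 on day 0. It had an ARID1A anchor too, and 0 PETs to the chain in both ARID1A libraries. Next came 58230334-58244725, with 2 and 1 PETs with ARID1A and 31 and 25 with H3K27ac on day 3. After it came 57920809-57939970, at 538 kb left of the FANCL end, with 2 and 4 with ARID1A and 27 and 14 with H3K27ac on day 3. Neither had a day 0 anchor. The partners 58087676-58093508, 57942996-57950432 and 58330575-58347563 had 12 and 15, 10 and 10, and 7 and 7 day 3 H3K27ac PETs in that order. On the right, 60773363-60782444 lay 2309 kb from the FANCL end and had 15 and 14 day 3 H3K27ac PETs, and 60254358-60258299 had 7 and 4. The last of the 10, 57984877-57990035 and 59422728-59426676, were anchors of ARID1A only, with at most 2 PETs in a library. Genes at these far anchors are not named here, because no hg19 annotation was used.

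In both ARID1A libraries a larger share of contacts left the region than in the H3K27ac libraries. Loops with both ends in the region held 72.3% and 68.4% of PETs with ARID1A, 94.8% and 94.7% with H3K27ac on day 3, and 99.0% and 96.4% on day 0. Ends to the left of the region took 24.3% and 28.3% of ARID1A PETs, 4.48% and 4.604% of H3K27ac PETs on day 3, and 0.803% and 3.58% on day 0. At the 198 kb anchor, 35.4% and 41.2% of ARID1A PETs ended outside the region, against 5.55% and 5.19% of H3K27ac PETs on day 3, and 0% and 6.14% on day 0, where 0 of 121 PETs allows a share of up to 2.48%. The groups differed in their anchors inside and outside the region, so these shares do not compare the same partners. From the 198 kb anchor, 141 and 150 day 3 H3K27ac PETs went to C2 and 134 and 129 to C3, where ARID1A had no anchor. In the region ARID1A alone had 58443255-58453897, with 12 and 8 PETs to the 198 kb anchor. Loops of 1000 kb or more numbered 20 and 25 with ARID1A (35 and 40 PETs), 14 and 13 with H3K27ac on day 3 (43 and 45 PETs), and 1 and 0 on day 0. The median span per PET was 120 and 159 kb with ARID1A, 76.9 and 76.9 kb with H3K27ac on day 3, and 67.8 and 128 kb on day 0. Over the whole libraries it was 82.9 and 83.2 kb, 101.1 and 99.9 kb, and 76.4 and 78.9 kb in the same order.

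The day 3 H3K27ac contacts of the region mostly lacked ARID1A anchors at one or both ends. An ARID1A anchor was present at both ends of 20.9% and 21.7% of them, at 1 end of 46.6% and 46.9%, and at neither end of 32.5% and 31.4%. In the whole day 3 H3K27ac libraries an ARID1A anchor was present at both ends of 75.4% and 75.5% of PETs and at neither end of 3.34% and 3.30%. The region was chosen by its gain of day 3 H3K27ac contacts, and 86.1% and 86.3% of its day 3 PETs touched the chain. There all merged anchors but C4 lacked an ARID1A anchor, so these shares also describe the choice. Replicates share their anchors, so nothing is read from how close they are. The comparison of region and library was not tested, since it sets 1 region against the library that contains it. Among the 3862 merged day 3 H3K27ac anchors without an ARID1A anchor, C3 ranked 4, C2 10, C1 47 and the 233 kb anchor 55 by level. In the other direction, 68.3% and 65.3% of ARID1A PETs of the region had a day 3 H3K27ac anchor at both ends, against 47.4% and 47.6% in the whole ARID1A libraries. A day 0 anchor was present at both ends of 58.7% and 58.4% of the region's day 3 H3K27ac PETs, close to 56.0% and 56.4% in the whole libraries.

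**Figure D4:**
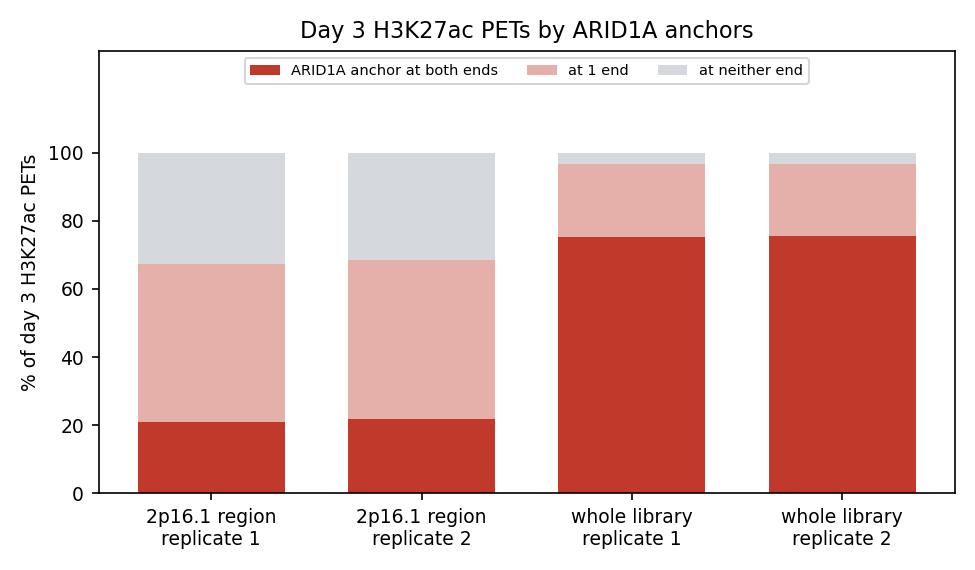
Share of day 3 H3K27ac PETs, in %, with a merged anchor that ARID1A also had at both ends, at 1 end or at neither end, for the 2p16.1 region and the whole library, by replicate. Both ends reach 20.9% and 21.7% in the region and 75.4% and 75.5% in the whole libraries.

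Where ARID1A and H3K27ac were both measured on day 3, the largest values of ARID1A over H3K27ac lay outside the chain. Of the chain only C4 was measured with both, since C1 to C3 had no ARID1A anchor. This fit shares the day 3 H3K27ac libraries with the choice of members and counts only PETs between anchors called with both antibodies, so at C4 it used 199 and 183 ARID1A PETs and 419 and 487 H3K27ac PETs. Of the 19 anchors 9 were measured and all were tested, and 7 passed as higher with ARID1A and 0 as lower by edgeR (7 and 0 at an unadjusted p under 0.05, and 5 and 0 by DESeq2), where 64.0% of all 11052 anchors passed in either direction and 31.5% as higher. The 7 are 77.8% of the members measured, and with library totals in place of TMM 3 members passed as higher and 3 as lower. The anchor at -36.6 kb had 34 and 43 PETs with ARID1A and 30 and 28 with H3K27ac, a log2 fold change of 2.10 ± 0.26 (edgeR quasi-likelihood test, adjusted p = 2.79e-15). The anchor at 433 kb, just right of the chain, had 66 and 61 PETs with ARID1A and 49 and 57 with H3K27ac (1.95 ± 0.20, adjusted p = 8.85e-22), and that at 678 kb had 29 and 38 with ARID1A and 37 and 43 with H3K27ac (1.44 ± 0.25, adjusted p = 4.64e-08). These anchors, none of them called on day 0, kept their call under each alternative that was run on them. ARID1A anchors were also wider there, at 1.80, 1.62 and 1.56 times the H3K27ac width in the same order, and the part of width was not tested. The other 6 anchors had widths within 1.5 times of each other and values of 0.11 to 0.70, with a median of 0.32.

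The other 6 anchors gave smaller values, and 5 of these turned below 0 with another scaling. The log2 value was 0.70 ± 0.14 at the 198 kb anchor (94 and 93 PETs with ARID1A, 187 and 186 with H3K27ac, edgeR adjusted p = 1.15e-06) and 0.45 ± 0.09 at C4 (edgeR adjusted p = 4.62e-06). It was 0.20 ± 0.09 at 477 kb and 0.56 ± 0.25 at 602 kb (edgeR adjusted p = 0.0492 and 0.0385), and neither 0.17 ± 0.12 at 532 kb nor 0.11 ± 0.29 at FANCL passed (edgeR adjusted p = 0.185 and 0.751). With library totals the median of all anchors was -0.70 in place of -0.05, and 5 of the 9 anchors turned negative, with -0.54 at FANCL, -0.20 at C4, -0.46 at 477 kb, -0.48 at 532 kb and -0.089 at 602 kb. Without the first H3K27ac library C4 no longer passed (0.17, edgeR adjusted p = 0.123), and the anchors at 477 and 602 kb did not pass without the first ARID1A library (0.0064 and 0.38), without the first H3K27ac library (-0.043 and 0.37) or without the second (0.016 and 0.34). Without the second ARID1A library 8 of the 9 passed as higher.

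Of the 299 merged loops, 90 joined anchors that both antibodies had on day 3, and 38 of these had enough PETs to be tested. As higher with ARID1A 12 passed and as lower 2, where 33.3% of all 28338 loops passed, 14.5% as higher and 18.8% as lower, and 24 did not pass. With library totals 10 passed as higher and 5 as lower, and the median of the 38 was -0.15 in place of 0.45, where that of all loops was -1.10 in place of -0.49. After thinning to the smallest library 13 loops were tested, and 2 passed as higher and 0 as lower by edgeR (2 and 0 at an unadjusted p under 0.05). The filter lets a loop in through either antibody alone, so these counts describe the loops that were full enough and not all members. Short loops into the 433 kb anchor were among those with the smallest adjusted p. C4 and the 433 kb anchor were joined by 32 and 29 PETs with ARID1A and 20 and 27 with H3K27ac (2.02 ± 0.28, edgeR adjusted p = 3.15e-11), and the 433 and 477 kb anchors by 23 and 15 PETs with ARID1A and 20 and 20 with H3K27ac (1.57 ± 0.33, edgeR adjusted p = 3.26e-05). These counts were similar between the antibodies although the ARID1A libraries held fewer PETs in all.

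The strongest ARID1A loop of the region, from C4 to 477 kb, had 85 and 74 PETs with ARID1A and 224 and 249 with H3K27ac, and did not differ beyond its error (0.08 ± 0.15, edgeR adjusted p = 0.703). The loop between the 198 kb anchor and C4 had 17 and 20 PETs with ARID1A and 42 and 51 with H3K27ac (0.32 ± 0.28, edgeR adjusted p = 0.377), and FANCL to the 198 kb anchor gave -0.17 ± 0.57 (edgeR adjusted p = 0.832). Among the loops to the left, the -36.6 kb anchor and the 198 kb anchor shared 9 and 10 PETs with ARID1A and 10 and 6 with H3K27ac (1.88 ± 0.53, edgeR adjusted p = 0.00292). From 58330575-58347563 to the 198 kb anchor there were 13 PETs over both ARID1A libraries and 2 over both H3K27ac libraries, a ratio of levels of 13.4 with a counting interval of 3.03 to 122. From 57942996-57950432 to the 198 kb anchor there were 10 and 2 PETs, a ratio of 10.3 (2.19 to 96.5). The lower loops both had 0 ARID1A PETs. C4 and 60773363-60782444 had 7 and 9 H3K27ac PETs, at least 2.59-fold lower with ARID1A against a floor of 3 PETs over the group. FANCL and 58268821-58277100 had 5 and 6, at least 1.78-fold lower. Both folds set the observed H3K27ac level against that floor and leave out the counting error of the H3K27ac PETs. These lower loops came through the filter by H3K27ac alone, and the loops with 13 and 10 ARID1A PETs by ARID1A alone. Their values therefore describe how they were let in, and nothing is read from their passing.

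These loop calls rested on few PETs and on both libraries of each antibody. With the low-count filter removed, 0 of the 90 loops passed by edgeR, with 14 higher and 5 lower at an unadjusted p under 0.05. DESeq2 passed 7 as higher and 0 as lower of the 32 that it gave an adjusted p, with 11 and 2 at an unadjusted p under 0.05. Without the first or the second ARID1A library 5 and 3 loops passed as higher and 0 as lower, and without the first or the second H3K27ac library 4 passed as higher each time, with 2 and 1 as lower. Of the 38 loops, 18 joined anchors of near-equal width with both antibodies, and of these 8 had values above 0 and 10 below, with a median of -0.05. None of the 12 loops that passed as higher was among them, and both lower loops were. The part of anchor width in these values was not tested. The median over the 38 was 0.45, against -0.49 over all loops tested.

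**Figure D5:**
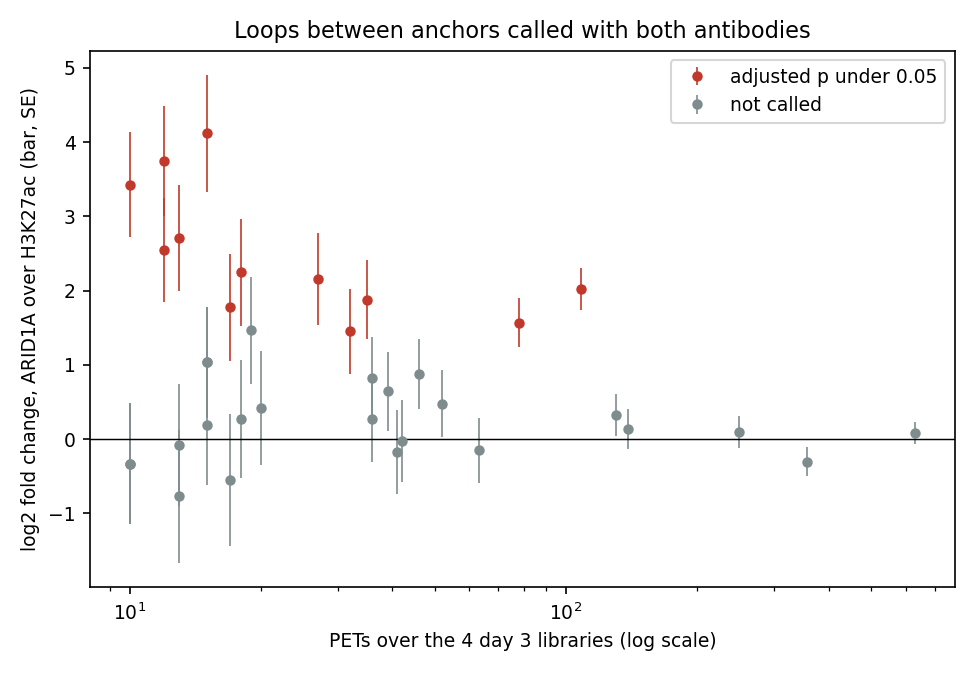
Log2 fold change of ARID1A over H3K27ac on day 3 (points, with SE as bars) against the PETs summed over the 4 day 3 libraries (log scale), for the tested loops of the region with at least 1 ARID1A PET, with loops at an adjusted p under 0.05 in red. The fullest loop, from C4 to 477 kb, sits at 0.08 ± 0.15 and did not pass. The 2 loops that passed as lower, with 0 ARID1A PETs, are not drawn.

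The anchors most like the chain over the 6 libraries lay on other chromosomes. Likeness was the Pearson correlation of log2(CPM + 1) with the summed chain over 6 libraries, among 5796 anchors called in all groups, and is a description without a p, since the libraries share 3 groups and a group mean sets most of it. In the summed chain a contact inside the chain counts at both ends. The sum was 550 and 455 CPM with ARID1A, 6065 and 6019 with H3K27ac on day 3, and 1064 and 1124 on day 0. With ARID1A it is C4 alone, since C1 to C3 had no ARID1A anchor, and on day 0 it leaves out C2. Anchors that were not measured thus entered the sum as 0, and the likeness depends on that. The 5 most like were chr8:22295166-22312901 (r = 0.998), chr20:812076-816089 (0.997), chr1:201465224-201483294 (0.997), chr6:43663142-43674074 (0.996) and chr14:100896643-100918811 (0.995). The last had 205 and 191 CPM with ARID1A, 658 and 647 with H3K27ac on day 3, and 323 and 291 on day 0. It followed the order of the groups with a far smaller gap between them. The chr20 anchor had only 2.38 and 2.22 CPM with ARID1A, 11.5 and 10.9 with H3K27ac on day 3, and 3.84 and 4.55 on day 0. Its place in the list thus rests on very few PETs. Of the region's own anchors outside the chain, that at 532 kb ranked 121 (r = 0.957), the 198 kb anchor 231 (0.933), 477 kb 282 (0.920) and FANCL 1323 (0.708).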

How the data were processed

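PET counts per loop are raw and not normalized, as deposited. Per the submitters' processing notes, HiC-Pro, Bowtie2 and hg19 were used; per the labels' protocols, reads were paired and 150 bp long. The calling of anchors and loops is not given in the sources used here. A second deposited value between 0 and 1 has no header, and only a threshold of 0.01 on it was used, as an alternative. The files do not state whether coordinates count from 0 or 1.

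Anchors from all libraries were merged where they shared at least 1 bp (Python 3.11.15, pandas 2.3.3, numpy 2.4.6), which turned 51970 anchors into 30001. CPM values use the PETs between different merged anchors. Anchors with at least 10 PETs, and loops with at least 4, in at least 2 libraries were tested over the whole table with edgeR 4.0.16 in R 4.3.3 (older quasi-likelihood method, TMM, Benjamini-Hochberg), on features whose anchors both groups had. Shares were compared with scipy 1.17.1. The fits were tested on simulated data.

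All merged anchors of the region were accounted for. Values per library were given for the chain, FANCL and 198 kb anchors. By rule, the text names loops from the 8 highest of each group by mean level, the 10 outside anchors with the most PETs to the chain, and the 5 anchors most like the summed chain. Loops of FANCL, of the 433 kb and -36.6 kb anchors and those with 0 to 3 PETs in a group were named after their values were seen. The members, lists and tests were chosen with earlier results of these data known. Replicate numbers came from the titles. Deviations of same-numbered libraries correlated by 0.0128 and 0.0109, so the numbers were not taken to pair libraries. The list of Fanconi genes was not used, since no hg19 annotation placed them. Alternatives were other scaling, DESeq2 1.42.0, filters, anchor rules, thinning to 253502 PETs, a replicate block, and leaving out each library.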

Additional observations from a re-analysis of the deposited data

How the results depend on the processing

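The share of PETs at the region with ARID1A minus that with H3K27ac on day 3 was -0.354 percentage points. It was -0.566 with the deposited value at 0.01 or less, -0.372 with both anchors inside the region, and -0.359 to -0.349 with 1 library left out.

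Over all features, ARID1A against H3K27ac gave 7074 anchors past the threshold. This became 19611 with anchors of 1 group included, 3775 at a reciprocal overlap of 50%, 3701 at a deposited value of 0.01 or less, 4423 after thinning, 4502 with the newer quasi-likelihood method after thinning, and 5212 to 5851 with 1 library left out. The 9432 loops became 4259 with DESeq2, 1 without the filter on low counts (16899 at an unadjusted p under 0.05), 29822, 2941 and 6252 under those same anchor rules in that order, 1894 and 2142 after thinning by the older and newer method, and 3866 to 4152 with 1 library left out.

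H3K27ac on day 3 against day 0 gave 2471 anchors, and 3829 with library totals, 1186 with DESeq2, 12159, 1235 and 1554 under those anchor rules, and 1792 to 1867 with 1 library left out. The 2504 loops became 4120 with library totals, 584 with DESeq2, 25189 with anchors of 1 group, 875 at reciprocal overlap, 69 and 131 after thinning, and 1041 to 1361 with 1 library left out. Library totals split the calls as 1767 higher and 5972 lower (ARID1A, anchors), 2583 and 10488 (ARID1A, loops), 393 and 3436 (day 3, anchors), and 577 and 3543 (day 3, loops), against 3477 and 3597, 4118 and 5314, 1294 and 1177, and 1389 and 1115 with TMM. Loops without the filter on low counts split as 1507 and 357 between the days. The replicate block gave 6995 anchors and 6608 loops for ARID1A, and 2436 and 2208 between the days. At the region it gave 7 higher anchors as without it, and 7 higher and 0 lower loops (12 and 1 at an unadjusted p under 0.05) in place of 12 and 2. The replicates share only a number.

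Signs turned at members under these settings. With library totals ARID1A over H3K27ac was -0.54 at FANCL, -0.20 at C4, -0.46 at 477 kb, -0.48 at 532 kb and -0.089 at 602 kb, and at a deposited value of 0.01 or less it was -0.26 at 532 kb. With 1 library left out it ranged from -0.21 to 0.34 at FANCL, -0.043 to 0.41 at 477 kb and -0.11 to 0.36 at 532 kb. The loop from the 198 kb anchor to C4 was -0.29 with library totals, -0.31 without the filter, and -0.23 to 0.50 with 1 library left out. That from the 198 kb anchor to 477 kb was -0.47, -0.50 and -0.34 to 0.38 in the same settings, and -0.13 after thinning by either method. That from C4 to 477 kb was -0.53, -0.55 and -0.42 to 0.27, and that from C4 to 532 kb -0.52, -0.54 and -0.45 to 0.46. With library totals the day 3 over day 0 value was -0.11 at the 198 kb anchor, -0.26 at C1, -0.52 at FANCL and -0.61 at 233 kb. At FANCL and 233 kb it was also -0.14 and -0.20 at a deposited value of 0.01 or less, and ranged from -0.042 to 0.32 and from -0.023 to 0.13 with 1 library left out. The cause was not tested.

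With 1 library left out, the lone library was assumed to vary like the other group. Loops of few PETs are limited by depth, and ARID1A loops of the region held under 4 PETs on average. Anchor widths differed between groups, and the part of width in a level was not tested.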
